A study of Mus musculus with 18 samples.

Results

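The miR-344 family is a group of mouse miRNAs made from hairpins that lie together on chromosome 7. The members described here are the 3p arms of miR-344, miR-344b, miR-344c, miR-344d, miR-344e, miR-344f, miR-344g and miR-344h and the 5p arm of the hairpin Mir344d-3, miR-344d-3-5p, which gives 9 of the 1966 miRNAs in the table. They were chosen by name, but the family was picked for measured values, namely the level of miR-344f-3p in tumors against adrenal gland and that of miR-344d-3-5p between the tumor types. For the members, values against adrenal gland are therefore a description with no test, and so are those of miR-344f-3p and miR-344d-3-5p between the tumor types.

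Small RNA of mouse tissue was sequenced in 18 libraries. The adrenal glands (AG, 3 libraries) are wildtype organs with the genotype "CRE -", so no transgene was switched on in them. The R26 IGF2BP1 tumors (TI, 7 libraries) carry "IGF2BP1, CRE +", with 6 tumors +/+ and 1 tumor +/- for the transgene. The R26 IGF2BP1/MYCN tumors (TIM, 8 libraries) carry "IMP1/MYCN, CRE +", where IMP1 is another name of IGF2BP1. IGF2BP1 is an oncofetal RNA-binding protein and MYCN a transcription factor, and both transgenes stand at the Rosa26 locus behind a stop cassette that is removed by a Cre driven by the dopamine beta-hydroxylase promoter, hence in the sympatho-adrenal lineage from which neuroblastoma arises. The IGF2BP1 transgene lacks its own 3'UTR, the mice were crossed back to C57Bl6/N, and ages are not given in the labels. By the labels 1 TI tumor and 2 TIM tumors were tumors of the adrenal gland and 1 TIM tumor one of the spine, but the table's columns name the group only, so these tumors, and the +/- tumor, cannot be picked out. Libraries are numbered here in the order of the columns. The labels number the samples and do not name the mice, so p-values measure the spread between these samples. By the paper, the IGF2BP1/MYCN mice bore more tumors than there were animals. Whether TIM libraries share a mouse cannot be told, and the tests treat them as separate.

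A miRNA is cut from a hairpin as a short duplex, of which the strand from the 5′ side is the 5p arm and the strand from the 3′ side the 3p arm. The arm that enters an Argonaute protein finds its target mRNAs mainly by its seed, bases 2 to 8, so family members with different seeds read different sites. In mice the miR-344 hairpins lie next to Ndn and Magel2, imprinted genes of the Prader-Willi region that are expressed from the paternal copy and are known for their role in neurons. The sequences are shown because the members fall into several seed groups. They are from RefSeq, with the seed in capitals.
miR-344-3p: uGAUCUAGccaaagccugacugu
miR-344c-3p: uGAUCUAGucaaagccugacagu
miR-344b-3p: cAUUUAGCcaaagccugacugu
miR-344d-3p: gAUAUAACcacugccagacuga
miR-344e-3p: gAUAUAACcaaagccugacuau
miR-344h-3p: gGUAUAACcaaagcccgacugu
miR-344f-3p: cUCUAGCCaggaccugacuac
miR-344g-3p: cAGGCUCUagccaggggcuuga
miR-344d-3-5p: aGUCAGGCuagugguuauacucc

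The seed GAUCUAG was shared by miR-344-3p and miR-344c-3p, which are both 23 bases long and differ by 2 substitutions (miR-344-3p base first, counted from its 5′ end), C9U and U21A. The seed AUAUAAC was shared by miR-344d-3p and miR-344e-3p, and miR-344h-3p differs from miR-344e-3p by the 3 substitutions A2G, U16C and A21G, the first of which lies in the seed. Outside the seed the members resemble each other more: miR-344-3p and miR-344b-3p share the run uagccaaagccugacugu of 18 bases, and the letters CAAAGCC stand in 5 of the 8 3p members. miR-344f-3p and miR-344g-3p share the run cucuagccagg of 11 bases, which begins at base 1 of miR-344f-3p and at base 5 of miR-344g-3p, so their seeds differ. The seed of miR-344d-3-5p, GUCAGGC, stands in 6 miRNAs of the table, all of them 5p arms of the family. Outside the family, among the 1675 miRNAs of the table with a RefSeq sequence, miR-410-3p has the seed AUAUAAC and miR-7070-3p the seed AGGCUCU of miR-344g-3p.

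In RefSeq's annotation of GRCm38.p6, the build of the authors' alignment (mm10), 13 hairpins of the family lie on the minus strand of chromosome 7 within 402 kb. In the order of the coordinates, they are Mir344d-1 (chr7:61683124-61683192), Mir344d-2 (chr7:61685272-61685351), Mir344d-3 (chr7:61726249-61726328), Mir344e (chr7:61735537-61735602), Mir344h-1 (chr7:61739350-61739409), Mir344h-2 (chr7:61742366-61742425) and Mir344b (chr7:61790519-61790581). There follow Mir344c (chr7:61837311-61837402), Mir344 (chr7:61877770-61877864), Mir344-2 (chr7:61940027-61940106), Mir344g (chr7:61982289-61982359), Mir344f (chr7:62046181-62046248) and Mir344i (chr7:62085223-62085310). The lncRNA A230057D06Rik (chr7:61705850-61927574) spans the hairpins from Mir344d-3 to Mir344. By GENCODE's annotation, matched by gene name, it is on their strand, and Mir344d-3 and Mir344b overlap its exons while Mir344e, both Mir344h hairpins, Mir344c and Mir344 lie in its introns. The lncRNA A330076H08Rik (chr7:61943895-61982355) overlaps Mir344g with an exon, and Mir344f and Mir344i overlap exons of another lncRNA, Gm72932, on their strand. Mir344d-2 lies in no annotated gene. Ndn begins 263 kb beyond the last hairpin, and 0 hairpins of other miRNAs lie within 1 Mb. miR-344-3p and miR-344h-3p are each made from 2 hairpins and miR-344d-3p from 3, so their reads sum over these copies. How reads with several matches were counted is not given in the sources used here. The split of reads between near-identical members is therefore uncertain.

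All 9 members were higher in tumors than in adrenal gland, with no overlap between the groups. Levels are given in CPM, the depth-scaled unit of the table, for which reads are divided by the library's total times its TMM factor (a scaling factor of edgeR). They are not corrected for length, which is 21 to 23 bases in the members. The 3 AG libraries held 21644743 to 23332704 reads on miRNAs, the TI libraries 11802837 to 21268124 and the TIM libraries 11641696 to 23435621. A level of 3 reads was 0.139 to 0.140 CPM in AG, 0.160 to 0.272 CPM in TI and 0.101 to 0.209 CPM in TIM, which covers counting error only. Every TI library was above every AG library for 9 of 9 members and every TIM library for 9 of 9. Over all 726 miRNAs that reached 1 CPM in 3 or more libraries the share was 22.0% for TI and 21.1% for TIM, and since the family was picked on this contrast, nothing is read from the difference. All 9 members passed this filter. miR-344d-3-5p, miR-344e-3p, miR-344g-3p and miR-344h-3p were under 1 CPM in every AG library, so they passed through the tumors alone.

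**Figure D1:**
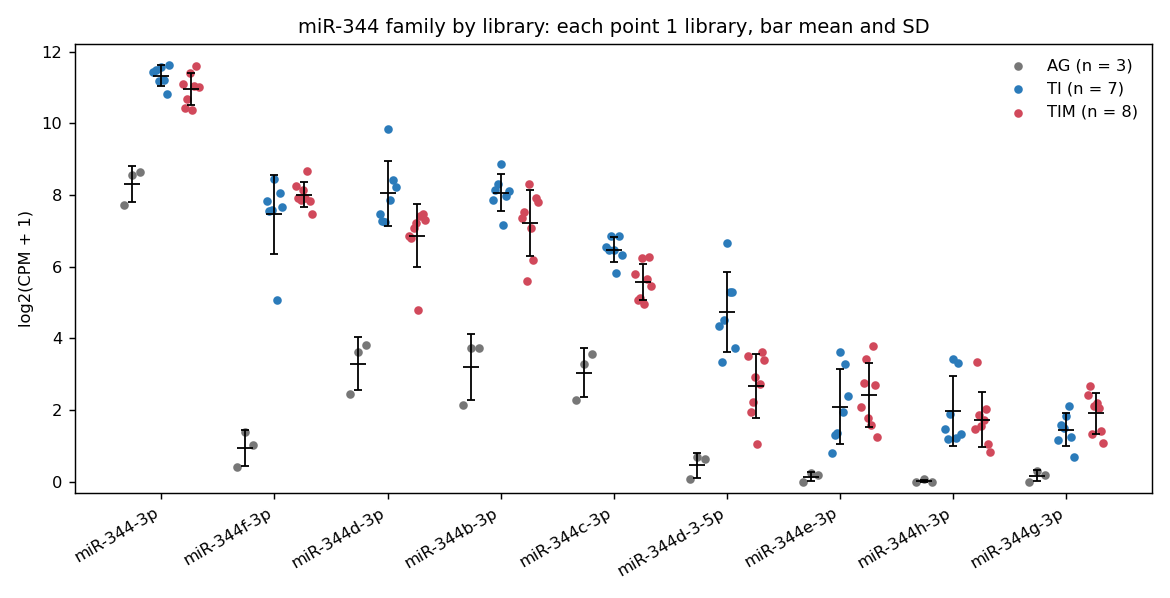
Levels of the 9 members on the log2(CPM + 1) scale, with 1 point per library, the group mean (horizontal bar) and SD (whiskers), for AG (3), TI (7) and TIM (8). For each member every tumor point lies above every AG point, miR-344-3p lies highest in each group, and 1 TI library lies far below the others for miR-344f-3p.

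miR-344-3p, from which the family has its name, was the most abundant member. Its level was 211, 376 and 400 CPM in AG. In TI it ranged from 1787 to 3167 CPM with a median of 2766 CPM, and in TIM from 1319 to 3105 CPM with a median of 2097 CPM. The means were 329 ± 103 CPM (SD, n = 3), 2608 ± 485 CPM (SD, n = 7) and 2063 ± 624 CPM (SD, n = 8). The mean was thus 7.92 times that of AG in TI and 6.26 times in TIM, and by mean level miR-344-3p ranked 116th of 1966 miRNAs in AG, 41st in TI and 49th in TIM. The log2 fold change, fitted with limma on log2(CPM + 1) over all 726 miRNAs, was 3.01 (SE 0.30) in TI and 2.64 (SE 0.29) in TIM.

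miR-344c-3p has the same seed and was much rarer. It stood at 3.84, 8.81 and 10.8 CPM in AG, at 55.3 to 115 CPM (median 88.2 CPM) in TI and at 30.1 to 75.6 CPM (median 46.1 CPM) in TIM. The log2 fold change was 3.43 (SE 0.36) in TI and 2.53 (SE 0.36) in TIM. For every 100 reads of miR-344-3p there were 1.82 to 2.69 reads of miR-344c-3p in AG, 2.35 to 6.43 in TI and 2.07 to 2.76 in TIM. In 5 of the 7 TI libraries this ratio, which does not depend on scaling, was above that of every TIM library, and in 4 of the 8 TIM libraries it was below that of every TI library. The ratio is limited by the uncertain split of reads between these near-identical members.

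miR-344b-3p, with a seed of its own, rose from a few CPM. Its level was 3.42, 12.3 and 12.2 CPM in AG. In TI it was 142 to 463 CPM (median 276 CPM) and in TIM 47.5 to 317 CPM (median 174 CPM). The mean was 30.1 times that of AG in TI and 18.6 times in TIM, with log2 fold changes of 4.86 (SE 0.52) and 4.03 (SE 0.51).

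miR-344f-3p had the largest log2 fold change of all 726 miRNAs in both tumor types on the log2(CPM + 1) scale, the value for which the family was picked. It was all but absent from AG, with 0.324, 1.63 and 1.02 CPM, or 64 reads in the 3 libraries together. In TI it stood at 226, 187, 190, 349, 32.6, 263 and 204 CPM, and in TIM at 305, 241, 229, 279, 242, 408, 226 and 177 CPM. The TI library 5 with 32.6 CPM stands apart from the other TI libraries, yet lies above every AG library. The mean was 209 times that of AG in TI and 266 times in TIM, and the log2 fold changes were 6.52 (SE 0.51) and 7.07 (SE 0.50). Without TI library 5 the change in TI was 6.92.

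miR-344g-3p, whose sequence overlaps that of miR-344f-3p, was among the rarest members. In TI it had the lowest mean level, while miR-344h-3p had the lowest median. It was listed at 0, 0.233 and 0.139 CPM in AG, 8 reads in all, at 0.624 to 3.31 CPM (median 1.85 CPM) in TI and at 1.11 to 5.42 CPM (median 3.26 CPM) in TIM. The log2 fold change was 1.28 (SE 0.34) in TI and 1.75 (SE 0.33) in TIM, a scale that understates the change of such low levels. The ratio of the means was 14.9 in TI and 24.3 in TIM.

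Among the members with the seed AUAUAAC or its variant GUAUAAC, miR-344d-3p was the abundant one. It had 4.44, 11.3 and 13.0 CPM in AG. The TI libraries had 176, 153, 150, 915, 231, 340 and 298 CPM and the TIM libraries 114, 111, 135, 148, 26.8, 170, 177 and 157 CPM. TI library 4 was highest by far and TIM library 5 lowest, though above every AG library. The log2 fold change was 4.76 (SE 0.57) in TI and 3.58 (SE 0.56) in TIM. miR-344e-3p, with the same seed, had 7 reads in AG (0, 0.186 and 0.139 CPM), 0.731 to 11.3 CPM (median 2.83 CPM) in TI and 1.39 to 12.9 CPM (median 4.37 CPM) in TIM, with log2 fold changes of 1.95 (SE 0.59) and 2.28 (SE 0.58). miR-344h-3p had 1 read in the 3 AG libraries together, 1.28 to 9.66 CPM (median 1.76 CPM) in TI and 0.766 to 9.09 CPM (median 2.15 CPM) in TIM. The ratio of miR-344h-3p to AG, from the reads summed over a group, was 242 in TI (95% interval 43.1 to 9577, from the exact binomial interval, for counting error only) and 208 in TIM (37.2 to 8243).

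miR-344d-3-5p is the only 5p arm among the members. It comes from Mir344d-3, 1 of the 3 hairpins that make miR-344d-3p. Its level was 0.046, 0.606 and 0.555 CPM in AG. In TI it was 19.3, 9.07, 21.8, 99.3, 38.1, 38.3 and 12.3 CPM, and in TIM 10.4, 2.83, 3.67, 6.54, 1.07, 5.67, 11.3 and 9.54 CPM. The highest value was again that of TI library 4 and the lowest tumor value again that of TIM library 5. The mean was 84.6 times that of AG in TI and 15.8 times in TIM. The log2 fold change of miR-344d-3-5p against AG was 4.28 (SE 0.62) in TI and 2.21 (SE 0.61) in TIM, and in TI it was 6.26 with edgeR, 5.97 with a pseudocount of 0.1 and 2.55 with one of 5.

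The median log2 fold change of the 9 members was 3.43 in TI and 2.53 in TIM, beside -0.0094 and 0.18 over all 726 miRNAs. Both comparisons share the 3 AG libraries, of which library 1 had the lowest level of 8 members and was at 0 with library 3 for miR-344h-3p. By mean level the order in TI was miR-344-3p, miR-344d-3p, miR-344b-3p, miR-344f-3p, miR-344c-3p, miR-344d-3-5p, miR-344e-3p, miR-344h-3p and miR-344g-3p. The levels of the neighbours miR-344d-3p (323 ± 271 CPM, SD, n = 7), miR-344b-3p (280 ± 97.7 CPM) and miR-344f-3p (207 ± 95.4 CPM) overlap between libraries. So do those of miR-344e-3p (4.41 ± 4.07 CPM), miR-344h-3p (3.89 ± 3.74 CPM) and miR-344g-3p (1.85 ± 0.889 CPM). The order of members within a library was not tested. In TIM miR-344f-3p (263 ± 69.7 CPM, SD, n = 8) stood second, ahead of miR-344b-3p (173 ± 89.2 CPM) and miR-344d-3p (130 ± 48.1 CPM), and the last neighbours again overlap.

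**Figure D2:**
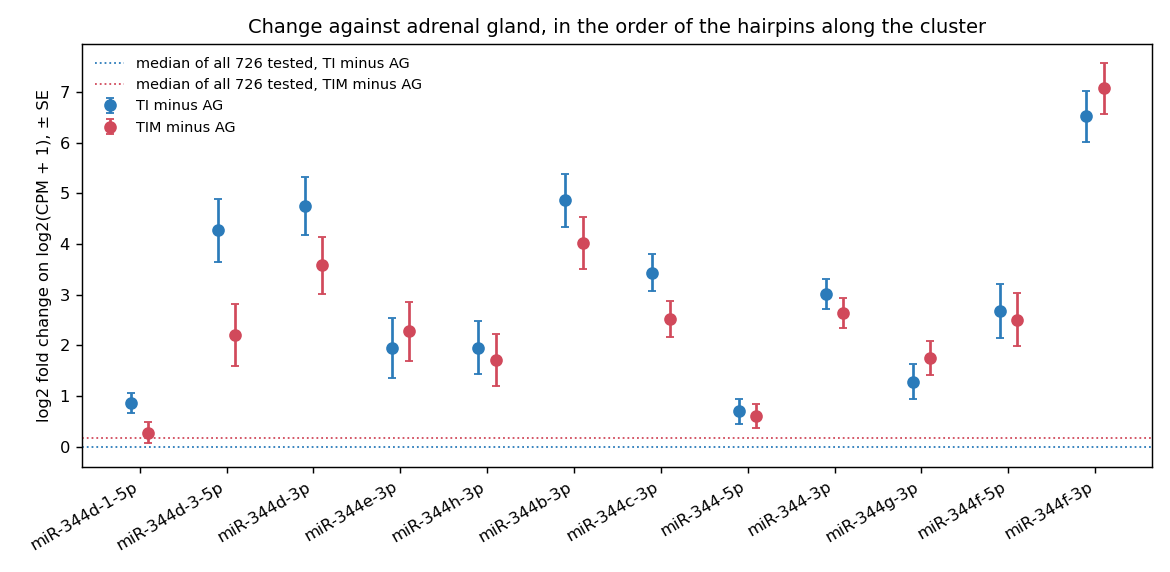
Log2 fold change on the log2(CPM + 1) scale with its standard error for TI minus AG and TIM minus AG, for the 9 members and the 3 other arms that passed the filter, in the order of the hairpins from Mir344d-1 to Mir344f. Dotted lines give the medians of all 726 miRNAs, -0.0094 for TI and 0.18 for TIM, and miR-344f-3p lies highest with 6.52 and 7.07.

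The makeup of the family differed between tissue and tumors. miR-344-3p made up 91.5% to 94.6% of the 8 3p members in AG, 62.3% to 83.4% in TI and 69.9% to 81.0% in TIM. miR-344f-3p made up 0.145% to 0.398% in AG, 1.16% to 9.48% in TI and 5.91% to 14.4% in TIM. miR-344d-3p held 1.99% to 2.96%, 4.31% to 18.8% and 1.52% to 6.44%, the last overlapping with AG through TIM library 5. All 19 miRNAs of the family together held 0.0207% to 0.0412% of a library's reads in AG, 0.244% to 0.427% in TI and 0.169% to 0.525% in TIM.

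**Figure D3:**
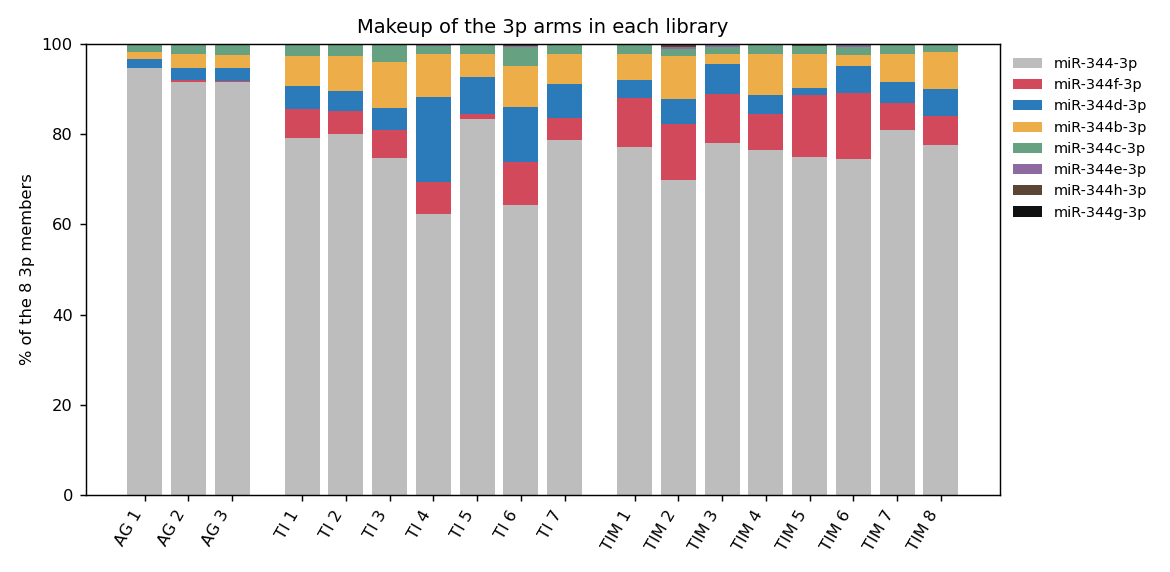
Share of each 3p arm in the sum of the 8 3p members, in percent, 1 bar per library (3 AG, 7 TI, 8 TIM). miR-344-3p takes over 90% of each AG bar and 62.3% to 83.4% of the tumor bars, and miR-344d-3p is widest in TI 4 with 18.8%.

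The 10 other mature miRNAs of the hairpins, 9 5p arms and miR-344i, which is listed without an arm, were scarce. In each hairpin with both arms listed, most reads were on the 3p arm in tumors, 87.7% or more in TI and 94.6% or more in TIM when reads were summed over a group. In single libraries the share went down to 67.7% in TI, for the rare miR-344g, and to 90.0% in TIM, for miR-344h. The 3p arm held 99.97% of the reads of miR-344 in TI and in TIM, 96.7% and 98.2% of those of miR-344f, and 90.1% and 95.2% of those of miR-344d, whose 5p reads are summed over 3 hairpins. Of these miR-344d 5p reads, miR-344d-3-5p held 85.6% to 99.4% in TI and 89.9% to 96.7% in TIM, so the hairpin Mir344d-3 gave most of them. miR-344e-5p and miR-344h-5p have the same sequence, so which hairpin made their reads cannot be told.

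Only 3 of the 10 passed the filter, and in AG all 3 were far under 1 CPM, so they passed through the tumors alone. A test against AG would rest on the libraries that let them in, and their values against AG are therefore a description, as for the members. miR-344f-5p was not read in AG and ranged from 0.374 to 14.2 CPM in TI and from 3.39 to 10.3 CPM in TIM. Against 3 reads over the AG group, its mean was at least 152-fold higher in TI and at least 107-fold higher in TIM. miR-344d-1-5p, also without a read in AG, was at least 19.1-fold higher in TI, where it was read in every library at 0.160 to 1.73 CPM. miR-344-5p had 5 reads in AG (0, 0.186 and 0.0463 CPM), 0.304 to 1.76 CPM in TI and 0.321 to 1.54 CPM in TIM, and every tumor library lay above every AG library. The log2 fold changes against AG in TI and TIM were 2.68 (SE 0.53) and 2.51 (SE 0.52) for miR-344f-5p, 0.87 (SE 0.20) and 0.28 (SE 0.20) for miR-344d-1-5p, and 0.70 (SE 0.25) and 0.60 (SE 0.24) for miR-344-5p.

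Between the tumor types none of the members tested was called in limma. The comparison TIM against TI sets tumors with both transgenes beside tumors with IGF2BP1 alone. Since both stand at the Rosa26 locus, a tumor with the genotype IGF2BP1/MYCN has MYCN in place of an IGF2BP1 copy of the +/+ tumors, so the MYCN transgene and the dose of IGF2BP1 cannot be told apart. The paper also reports a shorter median survival of IGF2BP1/MYCN mice than of mice homozygous for IGF2BP1. The age of the animals can therefore not be told apart from the genotype either. Of the 7 members tested, 0 passed an adjusted p of 0.05 in limma, beside 5.23% of all 726 miRNAs called in either direction and 1.79% called lower in TIM. In edgeR 0 members passed and in DESeq2 2, and 3 had an unadjusted p under 0.05 in limma. For these further counts no share over all 726 miRNAs is given, so nothing is read from them. miR-344c-3p came nearest, with a mean of 90.3 ± 20.5 CPM over the 7 TI libraries, 49.2 ± 18 CPM over the 8 TIM libraries (SD) and a log2 fold change of -0.91 (95% interval -1.48 to -0.34, adjusted p = 0.051 from limma). It passed in DESeq2 (adjusted p = 0.015), and in limma with median ratio scaling (adjusted p = 0.049) and without TI library 5 (adjusted p = 0.028), TI library 7 (adjusted p = 0.050), TIM library 4 (adjusted p = 0.039) or TIM library 7 (adjusted p = 0.047).

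For miR-344d-3p the log2 fold change TIM minus TI was -1.17 (95% interval -2.08 to -0.27, adjusted p = 0.099 from limma, and 0.025 from DESeq2). Without the TMM factor it was -0.62 (adjusted p = 0.34 from limma). With the factor, TIM minus TI was -0.84 for miR-344b-3p (-1.65 to -0.02, adjusted p = 0.21 from limma) and -0.37 for miR-344-3p (-0.85 to 0.10, adjusted p = 0.35 from limma). The rare members lay around 0, with 0.32 (-0.61 to 1.25, adjusted p = 0.73 from limma) for miR-344e-3p, -0.24 (-1.07 to 0.58, adjusted p = 0.78 from limma) for miR-344h-3p and 0.46 (-0.07 to 1.0, adjusted p = 0.30 from limma) for miR-344g-3p. These intervals leave room for changes of over 1.5 times in either or in one direction, so equal levels are not shown.

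miR-344d-3-5p and miR-344f-3p are described only. miR-344d-3-5p had a mean of 34.0 ± 31.0 CPM over the 7 TI libraries and of 6.38 ± 3.76 CPM over the 8 TIM libraries (SD), a log2 fold change of -2.06 (SE 0.47), and 5 of 8 TIM libraries lay below every TI library. For every 100 reads of its partner miR-344d-3p there were 4.15 to 16.5 reads of it in TI (median 11), 2.55 to 9.08 in TIM (median 4.21) and 1.04 to 5.37 in AG (median 4.29), so the groups overlap. The reads of miR-344d-3p come from 3 hairpins, so this is not the ratio of the arms of a single hairpin. The log2 fold change of miR-344f-3p was 0.55 (SE 0.38), with 1 of 8 TIM libraries above every TI library. Of the other arms, miR-344d-1-5p had 0.887 ± 0.529 CPM over the 7 TI and 0.223 ± 0.152 CPM over the 8 TIM libraries (SD), with a log2 fold change of -0.59 (SE 0.15). It reached 1 CPM in 3 TI libraries and in no other, so it passed the filter through TI alone, and this value too is a description. Its level is that of a few reads. For miR-344f-5p the log2 fold change was -0.16 (SE 0.40, adjusted p = 0.86 from limma) and for miR-344-5p -0.09 (SE 0.18, adjusted p = 0.81 from limma).

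The direction between the tumor types depended on scaling for 2 of the 9 members. miR-148a-3p alone took 2.29% to 61.9% of the reads in TI, 6.53% to 44.2% in TIM and 4.19% to 6.94% in AG, and the TMM factors were 0.700 to 0.934 in TI and 0.802 to 1.85 in TIM. The share of 2.29% was that of TI library 5 alone, and the next lowest in TI was 30.1%, in TI library 4. With CPM on the library's total, without the TMM factor, the median log2 fold change TIM minus TI of all 726 miRNAs moved from 0.06 to 0.49. miR-344-3p then had 0.18 and miR-344h-3p 0.18, both positive, while miR-344g-3p had 0.86 and passed (adjusted p = 0.049 from limma). Relative to the median of all miRNAs, miR-344-3p was at -0.44 with and -0.30 without the factor, miR-344h-3p at -0.31 under both, miR-344g-3p at 0.40 and 0.37, miR-344c-3p at -0.97 and -0.85, and miR-344d-3p at -1.24 and -1.11.

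**Figure D4:**
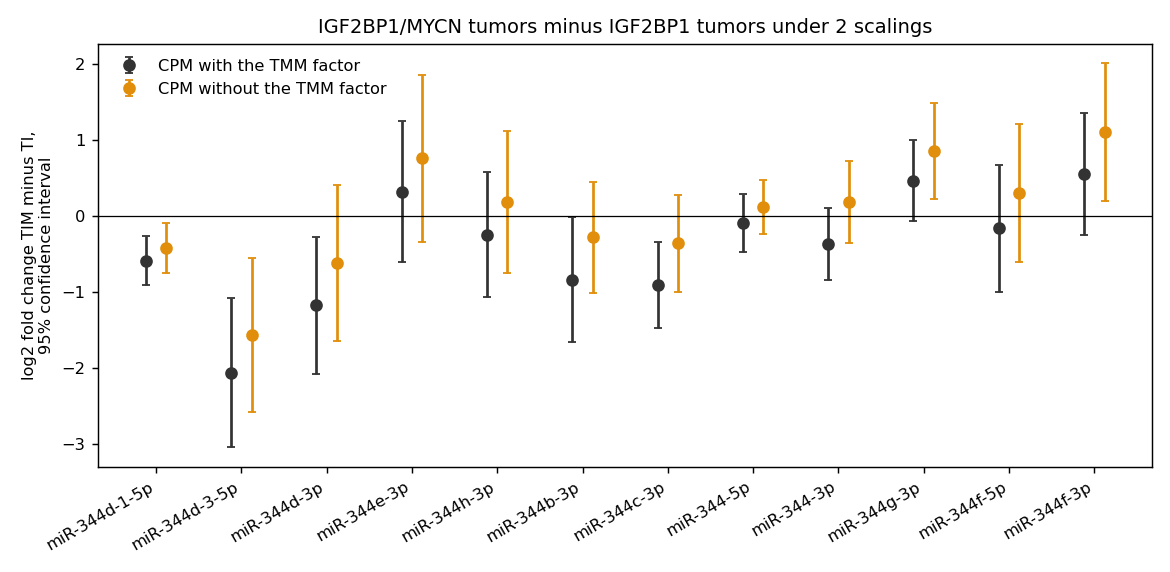
Log2 fold change TIM minus TI with its 95% confidence interval for the 9 members and 3 other arms, with the TMM factor (dark) and without it (orange). Without the factor all values lie higher, and miR-344-3p moves from -0.37 to 0.18.

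Few correlations between members passed after adjustment across tumors. Correlations of log2(CPM + 1) between miR-344f-3p and each other member were computed over the 15 tumor libraries, within TI and within TIM, 24 relations in all, of which 0 passed after Benjamini-Hochberg adjustment (smallest adjusted permutation p = 0.59 for Pearson's r) and 1 had an unadjusted p of Pearson's r under 0.05. The highest rank correlation over all tumors was that with miR-344h-3p, with rho = 0.68 (permutation p = 0.0067, adjusted 0.15) and r = 0.38 (permutation p = 0.19, adjusted 0.74), and r = 0.57 without the 2 libraries farthest from the median of miR-344f-3p. Without the TMM factor, r of miR-344f-3p in TIM was higher with every other member, as with miR-344-3p (0.13 with the factor, 0.71 without). In TI it moved both ways and by less. With so few libraries, a relation that did not pass is not shown to be absent. All 36 pairs of members were then correlated within each tumor type, a step added after seeing the data. Pearson's r ranged from -0.52 to 0.90 in TI with a median of 0.27, and from -0.71 to 0.97 in TIM with a median of 0.11. Of these 72 relations 2 passed after adjustment for Pearson's r, 1 for Spearman's rho and 3 without the TMM factor. Without the 2 farthest libraries of each relation 0 passed, but few permutations exist for the 5 or 6 libraries left. The smallest exact permutation p was then 0.0014, which became 0.10 after adjustment, so nothing is read from this count.

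The closest relation was that of miR-344-3p and miR-344c-3p in TIM, with r = 0.97 (adjusted exact permutation p = 0.0018, unadjusted 2.5e-05, n = 8) and Spearman's rho = 1.0 (adjusted exact permutation p = 0.0036, unadjusted 5.0e-05). It was r = 0.97 without the 2 libraries farthest from the median of miR-344-3p (adjusted exact permutation p = 0.10, n = 6). So few libraries allow few permutations, so nothing is read from this adjusted p or from that at n = 5 below. In TI the same pair had r = -0.35 (exact permutation p = 0.43, adjusted 0.74, n = 7) and rho = -0.61 (exact permutation p = 0.17, adjusted 0.53), and r = 0.73 without the 2 farthest libraries. The difference between the tumor types was not tested. Since the split of reads between these near-identical members is uncertain, how far their levels are separate measurements was not tested either. The other relation that passed was that of miR-344d-3p and miR-344e-3p in TI, with r = 0.90 (exact permutation p = 0.0012, adjusted 0.043, n = 7) and rho = 0.86 (exact permutation p = 0.024, adjusted 0.34), and r = 0.93 without the 2 farthest libraries (adjusted exact permutation p = 0.73, n = 5), while in TIM it was r = 0.39 (exact permutation p = 0.39, adjusted 0.74, n = 8) and rho = 0.21 (exact permutation p = 0.62, adjusted 0.87).

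**Figure D5:**
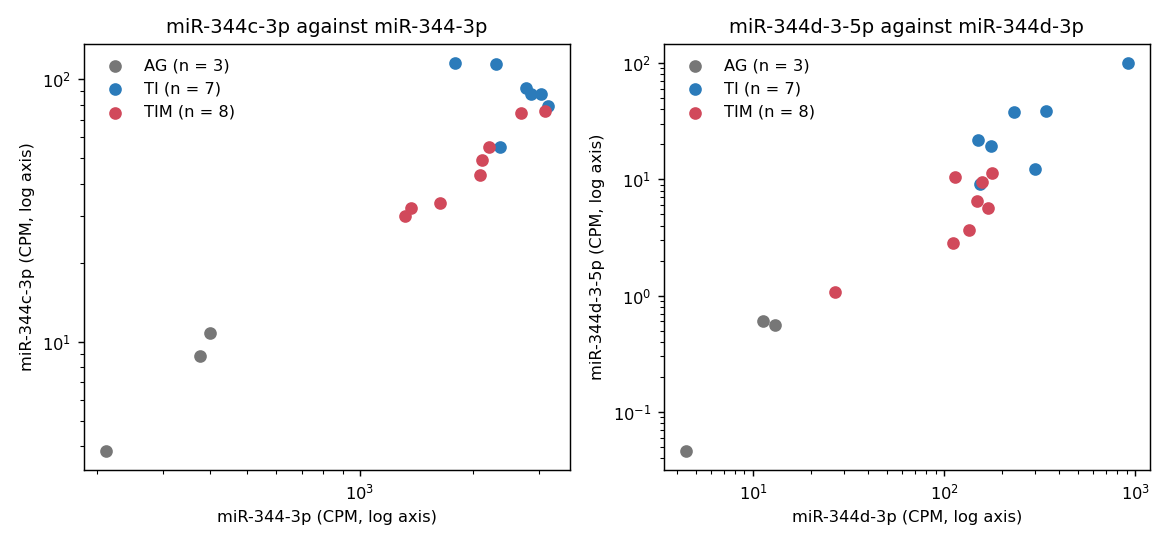
miR-344c-3p against miR-344-3p (left) and miR-344d-3-5p against miR-344d-3p (right) in CPM on log axes, 1 point per library of AG, TI and TIM. On the left the TIM points follow a line (r = 0.97) and the TI points do not (r = -0.35), and on the right TI 4 lies at the upper end with 915 and 99.3 CPM.

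miR-410-3p, a miRNA of the imprinted Dlk1-Dio3 cluster with the seed of miR-344d-3p and miR-344e-3p, was more abundant than either. It had 88.4 to 194 CPM in AG, 773 to 2956 CPM in TI and 605 to 1681 CPM in TIM, and was higher than in AG by a log2 fold change of 3.39 in TI (SE 0.40, adjusted p = 1.6e-06 from limma) and of 3.03 in TIM (SE 0.39, adjusted p = 5.3e-06 from limma). TIM minus TI was -0.36 (SE 0.30, adjusted p = 0.50 from limma). miR-7070-3p, with the seed of miR-344g-3p, stood at 0.278 to 0.601 CPM in AG, 0.146 to 2.35 CPM in TI and 0.627 to 3.80 CPM in TIM. Its log2 fold change was 0.31 (SE 0.37) in TI and 0.79 (SE 0.36) in TIM. It was under 1 CPM in every AG library and passed the filter through the tumors alone, so these values are a description.

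Of 389 miRNAs outside the family with a mean of at least 10 CPM in tumors, those whose log2(CPM + 1) was most like that of miR-344f-3p over the 15 tumor libraries were miR-6540-5p (r = 0.90), miR-672-5p (r = 0.78), miR-412-3p (r = 0.74), miR-340-5p (r = 0.71) and miR-331-3p (r = 0.68). This is a description, since the libraries share their depth and scaling. It rests on TI library 5, without which r was 0.46, -0.25, 0.34, 0.18 and 0.14. By mean level, miR-6540-5p stood at 0.665 CPM in AG and 161.5 CPM in tumors (the mean over the 15 libraries), beside 0.991 CPM in AG for miR-344f-3p.

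Some lists of marker miRNAs of cell types also differed between tumors and AG, while in others no miRNA was called. The 8 neuronal miRNAs listed summed to 2294 to 4205 CPM in AG, 8483 to 19763 CPM in TI and 12383 to 28611 CPM in TIM, and 6 of 8 were called higher in each tumor type in limma, beside 26.4% of all miRNAs tested in TI and 25.5% in TIM. miR-9-5p, a neurogenic miRNA, was 362 to 582 CPM in AG and 3748 to 18823 CPM in the tumors. The neuroendocrine miR-7a-5p and miR-375-3p together stood at 44909 to 107677 CPM in AG, 25729 to 246328 CPM in TI and 32236 to 228674 CPM in TIM, with 0 of 2 called. Over all 726 miRNAs tested, 213 were called lower in TI and 188 in TIM. Of the endothelial list 2 of 2 were lower in TI and in TIM (38529 to 46092 CPM in AG, 1704 to 6736 CPM in TI, 2428 to 8943 CPM in TIM), of the leukocyte list 3 of 5 in TI and 4 of 5 in TIM (427 to 620 CPM in AG, 53.5 to 348 CPM in TI, 69.5 to 215 CPM in TIM) and of the stromal and smooth muscle list 3 of 4 in each (122849 to 210442 CPM in AG, 16039 to 171483 CPM in TI, 16156 to 101726 CPM in TIM). Of the erythroid (2 listed), epithelial (5 listed) and skeletal muscle (3 listed) miRNAs 0 were called in either tumor type, with sums of 516 to 1891, 222 to 3649 and 94.6 to 2056 CPM in AG, TI and TIM for the erythroid and of 50.5 to 383, 15.6 to 1550 and 8.44 to 359 CPM for the epithelial list. The skeletal muscle list summed to 175 to 207 CPM in AG, 46.6 to 343.6 CPM in TI and 77.4 to 22972 CPM in TIM, the last in 1 library. No listed marker was at 0 in all libraries. The part of these lists in the change of the miR-344 family was not tested, and in such bulk tissue a change in the share of a cell type and a change in the RNA per cell cannot be told apart. TI library 5, lowest for miR-344f-3p, miR-344b-3p and miR-344c-3p, was highest of the TI libraries for miR-344g-3p, and had 38518 CPM of miR-375-3p where the other TI libraries had 1427 to 6425 CPM.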

How the data were processed

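Small RNA of 3 wildtype adrenal glands, 7 R26 IGF2BP1 and 8 R26 IGF2BP1/MYCN tumors had been isolated and sequenced, per the labels with TRIzol, while the study's methods name the Qiagen AllPrep kit for tumors and organs. Per the submitters' processing notes, cutadapt 2.8, Bowtie2 2.3.5.1, featureCounts 2.0.0 and edgeR 3.40 were used with the build mm10. The deposited values are a signal in CPM, which the authors computed on the library's total times its TMM factor. The authors also deposited columns of log2 fold changes, p-values and FDR for 3 comparisons, which were not used.

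Each of the 35388 values (100%) was a whole multiple of what 1 read is worth, within a tolerance of 0.001, so reads were recovered and used for counting errors and as alternatives. The main test was limma 3.58.1 (R 4.3.3; lmFit, eBayes with trend) on log2(CPM + 1). It covered 726 of 1966 miRNAs, those that reached 1 CPM in 3 or more libraries, and fitted the 18 libraries together, with Benjamini-Hochberg adjustment over all of them and a threshold of 0.05. The fold change on this scale understates that of low miRNAs. Alternatives were pseudocounts of 0.1 and 5, no filter or at least 10 CPM, other scalings, only the 2 groups compared, edgeR 4.0.16 and DESeq2 1.42.0 on the reads so recovered, and leaving out each library. Correlations were tested in Python 3.11.15 with numpy 2.4.6 by exact permutation within a tumor type and by 100000 permutations over the 15 tumor libraries. The limma step was tested on simulated data.

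The members and lists were chosen with earlier results of these data known. Named are all members, all other mature miRNAs of the hairpins, miRNAs that share a seed with a member, and the 5 miRNAs most correlated with miR-344f-3p over the tumor libraries. Sequences and coordinates are from RefSeq (GRCm38.p6), and exons and introns of lncRNAs from GENCODE on GRCm39, by gene name. Of 1966 miRNAs, 1675 had a sequence, among them all 19 of the family. Of 52 pairs of libraries of a group, 0 were identical.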

Additional observations from a re-analysis of the deposited data

Results flagged for a closer look

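Among the members and the 3 other arms that passed the filter on low values, 24 groups of libraries (TI and TIM for each) were examined for a library far from the rest, on the log2(CPM + 1) scale. Such a library appeared in 3 of them, where chance gives about 1 in 20. miR-344f-3p was at 32.6 CPM in TI library 5, with the next lowest TI library at 187 CPM. miR-344d-3p was at 26.8 CPM in TIM library 5, with the next lowest at 111 CPM, and the same library had the lowest TIM levels of miR-344-3p, miR-344c-3p and miR-344d-3-5p (1319, 30.1 and 1.07 CPM). miR-344f-5p was at 10.3 CPM in TIM library 4, with the next highest at 5.53 CPM.

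For miR-344d-1-5p the log2 fold change TIM minus TI was -0.59, with overlapping groups, as 4 of 8 TIM libraries lay below every TI library. It passed the filter on low values through 3 TI libraries alone, so no test of this difference is given.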

How the results depend on the processing

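No paired analysis was possible because the table's columns hold no number that pairs libraries. All 9 members stayed above every AG library in TI and in TIM under the 2 other scalings tried. Leaving out a library cannot undo such a separation, so nothing is read from that step. The family was picked on this contrast, so this too is a description. The median log2 fold change of the members against AG was 3.43 in TI and 2.53 in TIM, but 4.64 and 3.80 with a pseudocount of 0.1, 4.98 and 4.15 with edgeR, 5.04 and 4.14 with DESeq2, and in TI 4.52 with the filter of 10 CPM. With a library left out it spanned 3.05 to 3.69 in TI, and in TIM 2.20 to 2.78. The number of tested members called between TIM and TI, 0, became 1 without the TMM factor, 1 with median ratio scaling, 2 with DESeq2, and 0 to 1 with a library left out. The share of all miRNAs called under these settings is not given, so nothing is read from these counts. The 3 other arms passed the filter through the tumors alone, so the counts of their calls that follow support nothing. The number called higher in TI, 3, became 1 with the filter of 10 CPM, which leaves 1 arm to test. In TIM it was 2, and 1 with a pseudocount of 5, without a filter and with the filter of 10 CPM, and 1 to 2 with a library left out (1 without any of the AG libraries or of TIM libraries 1, 6, 7 and 8). The 1 arm called lower in TIM than in TI, miR-344d-1-5p, became 0 with a pseudocount of 5, no filter, the filter of 10 CPM, no TMM factor, only the 2 groups in the model or edgeR, and 0 to 1 with a library left out. The sign of TIM minus TI turned, far from the threshold, without the TMM factor for miR-344-3p (0.18), miR-344h-3p (0.18), miR-344-5p (0.12) and miR-344f-5p (0.30), and with a library left out for miR-344-5p (from -0.18 to 0.016, the latter without TI library 1) and miR-344f-5p (from -0.53 to 0.044, above 0 without TI library 4 or 6, at 0.018 and 0.044). The cause was not tested. Counts of under 10 reads limit miR-344e-3p, miR-344g-3p and miR-344h-3p in AG.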

Other observations

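The 7 other arms too low to test were read in tumors and hardly in AG. miR-344c-5p, at 0 reads in AG, was found in every tumor library, with 0.214 to 0.845 CPM in TI and 0.114 to 0.671 CPM in TIM. miR-344d-2-5p, also at 0 reads in AG, was found in every TI library, with 0.053 to 1.15 CPM, and in 7 of 8 TIM libraries. miR-344e-5p and miR-344h-5p, which have the same sequence, reached 1.45 and 1.99 CPM in TI. miR-344g-5p reached 0.880 CPM in TI and 0.179 CPM in TIM. miR-344i was found in 4 of 7 TI and 6 of 8 TIM libraries, at up to 0.181 and 0.269 CPM. miR-344b-5p had 2 reads in all 18 libraries, both in TI, beside 28448 reads of miR-344b-3p in TI. In TIM library 3 and TIM library 6, which have the highest TMM factors (1.80 and 1.85), miR-344b-3p was lowest (47.5 and 71.6 CPM) while miR-344e-3p was highest (9.69 and 12.9 CPM).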
